A study of Homo sapiens with 21 samples.

Results

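AU565 cells grown without trastuzumab as 3-dimensional aggregates were compared with untreated AU565 monolayers, to describe what aggregate growth alone changed across the transcriptome. AU565 comes from a human breast tumour and carries many copies of ERBB2, the gene of the receptor HER2. Trastuzumab is an antibody against that receptor. The comparison uses 6 of the 21 libraries of the series, chosen by their labels: 3 of untreated aggregates and 3 of untreated monolayers. The aggregates were kept for 96 h in a liquid overlay with 5% matrigel, an extract of basement membrane, and the monolayers were the untreated control, whose incubation time the labels do not give. The labels call both groups wild type, and both grew in RPMI with 10% serum, antibiotics and 5% CO2 at 37 °C, so aggregates and monolayers differed in the overlay, the matrigel and possibly in time in culture. These factors cannot be told apart. Beside them, 3 libraries of primed aggregates (20 µg/ml of trastuzumab for 24 h as a monolayer, then 96 h as aggregates) were set against 3 libraries of exposed monolayers (the same 24 h exposure, with RNA taken at its end). The labels do not tell whether the replicates were cultured separately, so p-values measure the spread between libraries of a group, which may be technical. That spread was estimated over all 21 libraries in 7 groups.

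Cells inside an aggregate receive oxygen, nutrients and growth factors by diffusion through their neighbours, whereas cells of a monolayer face the medium directly. When oxygen is short, the prolyl hydroxylases of the EGLN family stop marking the alpha subunits of hypoxia-inducible factor (HIF) for destruction, and HIF switches on genes of glycolysis, acid export and blood vessel growth. Proliferation depends on a separate programme, in which E2F factors drive replication genes and the factors B-MYB and FOXM1, with the DREAM and MuvB complexes, time the expression of mitotic genes.

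The 3 aggregate libraries held 16939524, 19577897 and 17253357 counts and the 3 monolayer libraries 17207688, 24722679 and 21092580. Levels of each gene are given as CPM, counts scaled to a common library size by edgeR with the trimmed mean of M-values. Changes are fitted log2 ratios of aggregates over monolayers with their standard error (SE). Sums over a list, also in CPM, were scaled by the total counts of each library only. The trimmed-mean factors left out of the sums were 0.975 to 1.005 in aggregates and 1.026 to 1.037 in monolayers. Gaps between groups as small as those of the leukocyte and epithelial sums below may not remain with them. Replicate 3 stood apart in each group: counts of aggregate replicates 1 and 2 differed by 3.31 times the counting variance, against 10.7 and 7.04 for the pairs with replicate 3, and monolayer replicates 1 and 2 by 3.44, against 6.69 and 6.57. The cardiac myosin gene MYH7 marked the same split, with 29.9, 20.6 and 0 CPM in aggregates against 85.5, 87.4 and 0.0924 CPM in monolayers (edgeR adjusted p = 0.214, or 6.18e-08 with the replicate number as a block over the compared groups and 0.0445 without monolayer replicate 3). Genes of striated muscle summed to 262, 240.1 and 207 CPM in aggregates and to 355, 358 and 137 CPM in monolayers, and 2 of 14 tested rose and 2 fell by the test below, or 8 fell without monolayer replicate 3 and 11 with the replicate number as a block over the compared groups. Melanocyte genes summed to 26.5, 34.0 and 24.6 CPM in aggregates and to 83.2, 130.1 and 60.4 CPM in monolayers, where replicate 2 was highest. Of 9 listed, 8 were tested and 6 fell, all at least 2-fold. Without monolayer replicate 2 the falls called were 4, and without aggregate replicate 3 they were 5. Mesenchymal genes summed to 23.8 to 41.5 CPM in aggregates and 26.8 to 53.5 CPM in monolayers, brain genes to 8.02 to 11.4 CPM in aggregates and 14.8 to 21.6 CPM in monolayers, and leukocyte genes to 57.3 to 62.1 CPM in aggregates and 62.4 to 66.0 CPM in monolayers. Endothelial genes ran higher in aggregates (14.5 to 18.5 CPM) than in monolayers (9.81 to 10.8 CPM), most of it from KDR. Results that move with these markers are given beside them. The 10 epithelial and amplicon markers of AU565 summed to 16420, 15700 and 15170 CPM in aggregates and 16570, 16610 and 17850 CPM in monolayers, but CDH1, the epithelial cadherin, was close to absent, at 1.18, 1.23 and 0.654 CPM in aggregates against 0.562, 1.87 and 1.39 CPM in monolayers. In bulk RNA, fewer cells of a kind and less RNA per cell cannot be told apart.

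**Figure D1:**
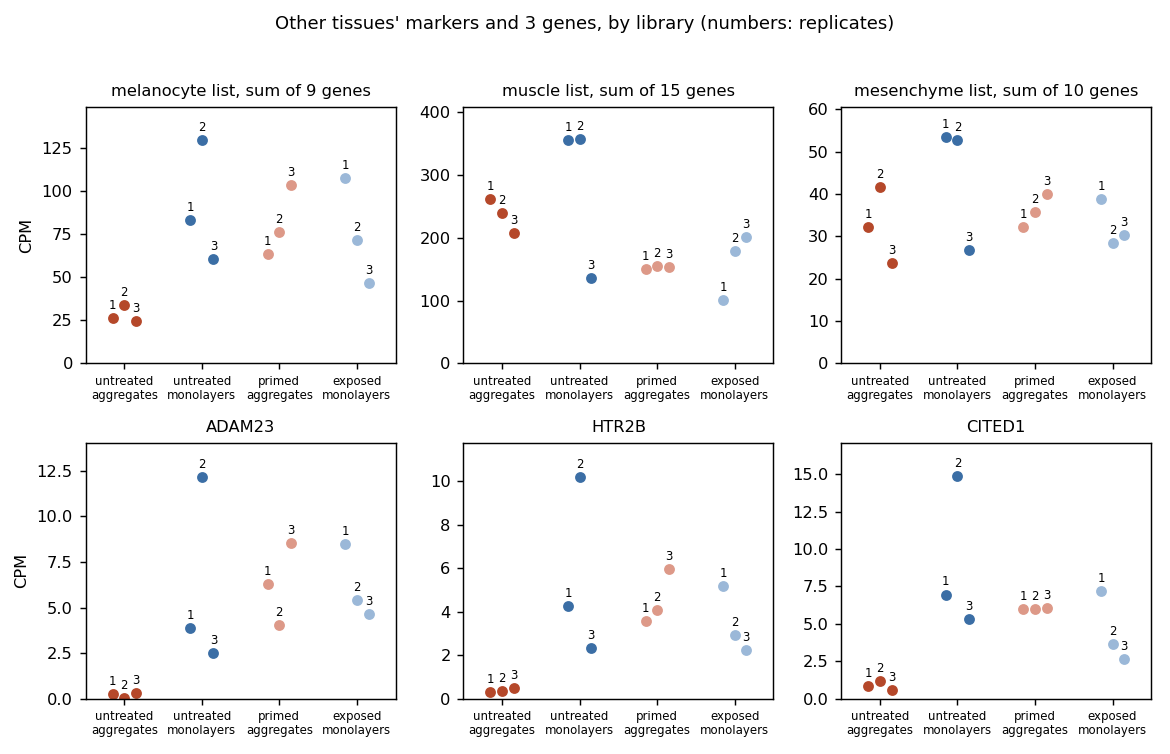
Level in CPM (vertical axes, linear) of the melanocyte, muscle and mesenchyme marker lists and of ADAM23, HTR2B and CITED1 in each library of untreated aggregates, untreated monolayers, primed aggregates and exposed monolayers; each point is a library, numbered by replicate. The melanocyte sum is 24.6 to 34.0 CPM in untreated aggregates, below all untreated monolayers, and the 3 genes share its highest library, monolayer replicate 2.

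Of 15969 genes tested with edgeR's quasi-likelihood method, 10229 were called (64.1%): 5256 were higher in aggregates (32.9%) and 4973 lower (31.1%) at a Benjamini-Hochberg adjusted p under 0.05. Most changes were small: 71.4% of the called genes changed by less than 2-fold, the median change of all genes was log2 0.01, and the median size of change was log2 0.44. At 2-fold or more, 1629 genes rose (10.2%) and 1295 fell (8.11%), and at 8-fold or more 107 rose and 78 fell. All 3 libraries of 1 group lay above all 3 of the other, in either direction, for 65.5% of genes. With close to 1 in 3 genes called in each direction, a list is described below by its counts and its median beside these figures, and a share near them says nothing about the list.

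**Figure D2:**
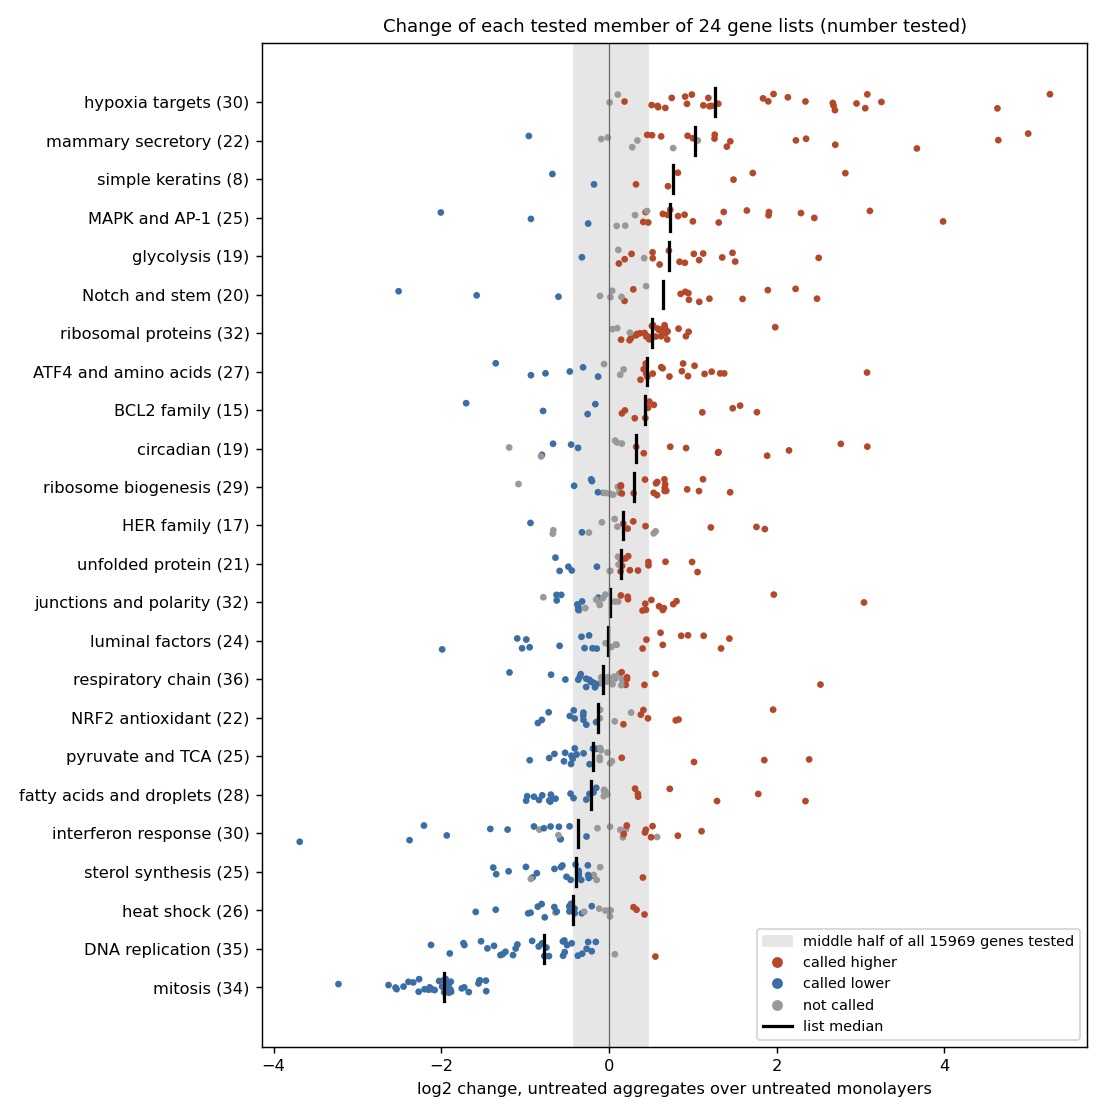
Fitted log2 change, untreated aggregates over untreated monolayers (horizontal axis), of every tested member of 24 gene lists (rows, number tested in brackets); points are genes, colours show the call, black ticks are list medians and the grey band runs from the lower to the upper quartile of all 15969 genes. The hypoxia targets have a median of 1.26 and the mitotic genes one of −1.97, both outside the band.

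Genes of oxygen sensing moved in both directions. EGLN3, a prolyl hydroxylase that is itself a HIF target, had 215, 219.9 and 246 CPM in the 3 aggregate libraries, against 11.1, 9.48 and 10.4 CPM in the 3 monolayer libraries (log2 4.47, SE 0.082, edgeR adjusted p = 2.54e-30), and no library of a group came near the other group. EGLN1, the main HIF hydroxylase, also rose, with 128, 127 and 134 CPM in aggregates, against 50.2, 49.8 and 49.5 CPM in monolayers (log2 1.38, SE 0.055, edgeR adjusted p = 3.22e-21). EGLN2, another EGLN gene, fell (log2 −1.16), a call lost without the 4 libraries that carry MYH7 (log2 −0.68). The HIF alpha subunits fell as well. EPAS1, which encodes HIF-2 alpha, had 211, 211 and 226 CPM in aggregates, against 574, 566 and 564 CPM in monolayers (log2 −1.39, SE 0.050, edgeR adjusted p = 1.4e-22). HIF1A was measured at 126, 131 and 140.3 CPM in aggregates, against 233, 208 and 209 CPM in monolayers (log2 −0.71, SE 0.052, edgeR adjusted p = 3.78e-14). All aggregate libraries were below all monolayer libraries for both. ARNT, the shared partner subunit, fell slightly (log2 −0.36, edgeR adjusted p = 4.71e-07), whereas ARNT2, its homolog, was higher, with 5.05, 6.18 and 6.30 CPM in aggregates, against 1.46, 1.60 and 1.11 CPM in monolayers (log2 2.06, SE 0.21, edgeR adjusted p = 2.32e-10). CITED2, which competes with HIF for the coactivator p300, rose, with 319.6, 317 and 349 CPM in aggregates, against 116, 108 and 124 CPM in monolayers (log2 1.51, SE 0.067, edgeR adjusted p = 7.82e-19). VHL, the ligase subunit that recognises hydroxylated HIF, had 72.5, 74.4 and 70.1 CPM in aggregates, against 71.5, 65.7 and 66.7 CPM in monolayers, groups that overlapped (log2 0.09, edgeR adjusted p = 0.153). Of 11 tested members 6 rose and 4 fell, with a median of log2 0.18.

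Targets of HIF rose almost throughout. Of 30 listed, all of which passed the filter on low counts, 28 rose, 0 fell and 19 rose at least 2-fold, with a median of log2 1.26. Summed over the list, aggregates held 8415 to 8778 CPM and monolayers 2153 to 2255 CPM. The members whose promoters are printed here rose most or hold several copies of the HIF core, the letters ACGTG or GCGTG searched on both strands and shown in capitals. They are promoters from 250 bases before to 50 after the start, RefSeq sequence of GRCh38.p14, written 5′ to 3′ on the strand of the gene. The first of them belongs to PPFIA4, a liprin scaffold protein.
PPFIA4, chr1:203026241-203026540, plus strand: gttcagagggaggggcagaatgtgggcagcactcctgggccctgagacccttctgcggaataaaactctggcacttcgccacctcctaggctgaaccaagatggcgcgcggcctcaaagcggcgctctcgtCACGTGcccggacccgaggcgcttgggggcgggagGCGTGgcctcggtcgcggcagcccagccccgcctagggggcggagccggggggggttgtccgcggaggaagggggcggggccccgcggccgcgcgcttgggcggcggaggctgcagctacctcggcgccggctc
ANKRD37, chr4:185396591-185396890, plus strand: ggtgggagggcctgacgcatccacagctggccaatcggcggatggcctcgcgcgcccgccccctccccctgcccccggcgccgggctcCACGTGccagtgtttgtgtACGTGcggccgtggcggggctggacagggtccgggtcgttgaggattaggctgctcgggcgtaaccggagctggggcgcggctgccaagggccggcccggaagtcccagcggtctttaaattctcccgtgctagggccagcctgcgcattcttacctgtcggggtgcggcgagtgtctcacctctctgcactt
BHLHE40, chr3:4979187-4979486, plus strand: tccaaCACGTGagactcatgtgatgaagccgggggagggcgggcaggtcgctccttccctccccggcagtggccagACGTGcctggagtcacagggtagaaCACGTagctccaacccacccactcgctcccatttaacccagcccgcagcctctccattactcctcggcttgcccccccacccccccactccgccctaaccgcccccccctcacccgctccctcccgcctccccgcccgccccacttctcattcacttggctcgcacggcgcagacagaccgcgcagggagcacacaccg
In each of the 3, the capitals include CACGTG, where ACGTG lies on both strands and the matches overlap. The number of matches did not follow the size of the rise throughout. CA9, which rose more than BHLHE40, held 1 match, and BNIP3, which rose by log2 0.91, held 6. The promoter of EGLN3, of the oxygen sensing list, held neither core. Of 24 hypoxia target promoters in the RefSeq table, 22 held either core (91.7%), against 61.8% of the 12190 promoters of tested genes, and 14 held ACGTG (58.3%), against 26.1%. Over all genes that rose at least 2-fold, ACGTG stood in 23.2% of promoters, below its share in all promoters. A match is a run of letters and not a shown binding site.

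PPFIA4 itself had 42.96, 44.5 and 33.4 CPM in aggregates, against 1.18, 1.01 and 0.971 CPM in monolayers (log2 5.26, SE 0.17, edgeR adjusted p = 2.13e-23), the widest change on the hypoxia list. ANKRD37, a small ankyrin repeat protein, had 11.8, 13.1 and 13.6 CPM in aggregates, against 0.618, 0.312 and 0.647 CPM in monolayers (log2 4.63, SE 0.26, edgeR adjusted p = 5.9e-17). The clock and stress repressor BHLHE40 was measured at 239, 255 and 259.7 CPM in aggregates, against 31.00, 28.2 and 29.9 CPM in monolayers (log2 3.08, SE 0.067, edgeR adjusted p = 1.91e-28). All 3 were far lower in every monolayer library. CA9, a carbonic anhydrase that acidifies the outside of the cell, stood at 9.87, 13.1 and 11.2 CPM in aggregates, against 1.12, 1.44 and 0.971 CPM in monolayers (log2 3.25, SE 0.31, edgeR adjusted p = 3.26e-08). The vasodilator peptide ADM had 69.3, 82.7 and 76.9 CPM in aggregates, against 9.32, 8.70 and 9.52 CPM in monolayers (log2 3.06, SE 0.14, edgeR adjusted p = 3.92e-15). VEGFA, the angiogenic factor, rose less than these, with 398, 396 and 311 CPM in aggregates, against 172, 174 and 160.3 CPM in monolayers (log2 1.13, SE 0.066, edgeR adjusted p = 1.02e-15). Genes that modify collagen also rose, among them the prolyl hydroxylase subunit P4HA1 (log2 2.70), the cross-linking oxidases LOX (2.13) and LOXL2 (2.68), and the protein disulfide oxidase ERO1A (2.67). So did DDIT4, an inhibitor of mTORC1 (1.90), and the mitophagy receptors BNIP3 (0.91) and BNIP3L (1.30). Members that did not pass were INSIG2, with 37.4, 42.1 and 41.6 CPM in aggregates against 42.9, 39.4 and 38.4 CPM in monolayers (log2 0.01, edgeR adjusted p = 0.931), and ANGPTL4, which was under 1.5 CPM in all 6 libraries (log2 0.11, edgeR adjusted p = 0.847).

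**Figure D3:**
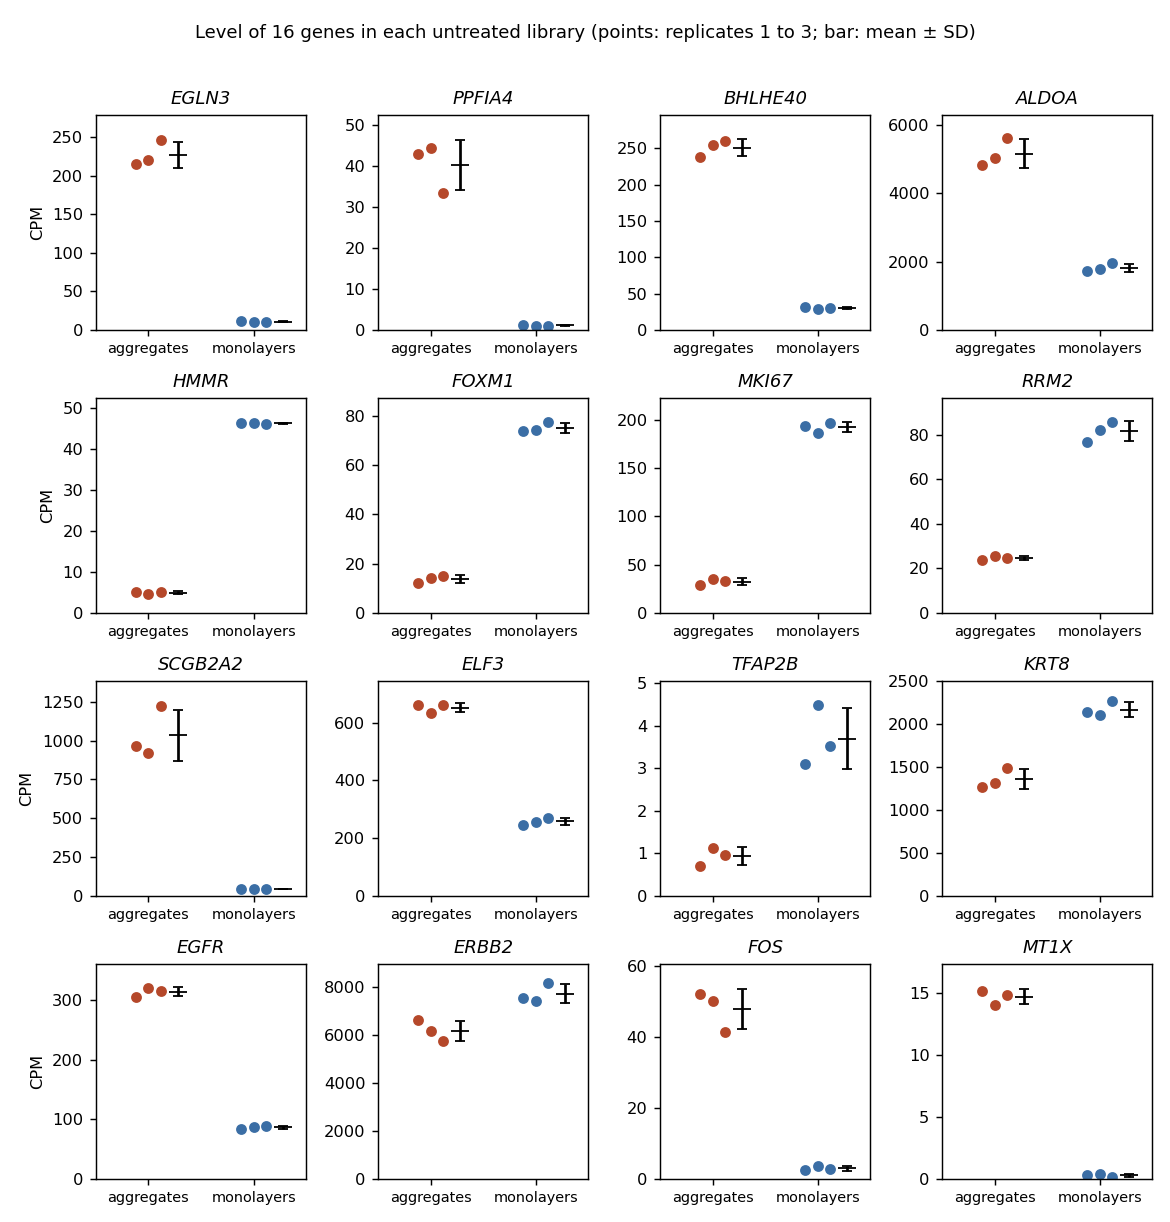
Level in CPM (vertical axes, linear, from 0) of 16 genes in the 3 untreated aggregate libraries (left of each panel) and the 3 untreated monolayer libraries (right); points are replicates 1 to 3 in order, and the bar beside them is the mean ± SD. The 16 genes were picked from the named genes with earlier results known. The groups do not overlap in any panel, as for 65.5% of all genes tested. EGLN3, at 215 to 246 CPM in aggregates against 9.48 to 11.1 CPM in monolayers, shows one of the wider gaps.

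Along glycolysis, 16 of 19 tested genes rose and 1 fell (median log2 0.72), 7 of them at least 2-fold, and the summed level was 22580 to 25390 CPM in aggregates against 12010 to 12610 CPM in monolayers. The aldolase ALDOC changed most, with 181, 172 and 188 CPM in aggregates, against 30.6, 32.6 and 32.3 CPM in monolayers (log2 2.50, SE 0.057, edgeR adjusted p = 7.06e-28). Its paralog ALDOA had 4841, 5027 and 5635 CPM in aggregates, against 1719, 1780.0 and 1958 CPM in monolayers (log2 1.51, SE 0.060, edgeR adjusted p = 3.35e-21). PFKP, an isoform of the committing enzyme phosphofructokinase, was at 172, 183 and 187 CPM in aggregates, against 59.2, 66.1 and 69.5 CPM in monolayers (log2 1.47, SE 0.060, edgeR adjusted p = 5.47e-21). PGK1, which makes ATP by substrate phosphorylation, rose to 1826, 2051 and 2280.0 CPM in aggregates, against 801, 795 and 816 CPM in monolayers (log2 1.35, SE 0.056, edgeR adjusted p = 1.16e-20). LDHA, the lactate dehydrogenase subunit that favours lactate formation, had 2045, 2324 and 2668 CPM in aggregates, against 1107, 1077 and 1044 CPM in monolayers (log2 1.12, SE 0.068, edgeR adjusted p = 4.61e-15). Each of these genes had 3 aggregate libraries above 3 monolayer libraries. The neuronal enolase ENO2 and the lactate transporter SLC16A1 did not pass (log2 0.42, edgeR adjusted p = 0.146 and log2 0.11, edgeR adjusted p = 0.771). LDHB, the subunit that favours pyruvate, fell slightly (log2 −0.32, edgeR adjusted p = 0.00165), a call lost without the 4 libraries that carry MYH7 (−0.07, adjusted p = 0.662).

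Genes that control the entry of pyruvate into the citrate cycle changed in both directions. PDK1, a kinase that inactivates pyruvate dehydrogenase, had 59.1, 59.7 and 64.3 CPM in aggregates, against 16.8, 17.1 and 16.7 CPM in monolayers (log2 1.85, SE 0.076, edgeR adjusted p = 7.6e-21). PDK4, a second such kinase, was also higher, at 12.9, 14.5 and 14.8 CPM in aggregates, against 3.26, 2.22 and 2.68 CPM in monolayers (log2 2.39, SE 0.33, edgeR adjusted p = 1e-05). MPC1, a subunit of the mitochondrial pyruvate carrier, fell to 46.95, 45.95 and 43.5 CPM in aggregates, against 80.2, 86.3 and 95.8 CPM in monolayers (log2 −0.94, SE 0.060, edgeR adjusted p = 1.02e-15). The dehydrogenase subunit DLAT (log2 −0.65, edgeR adjusted p = 7.68e-12) and OGDH, a subunit of the oxoglutarate dehydrogenase (log2 −0.54, edgeR adjusted p = 1.15e-10), fell too. OGDHL, the paralog of OGDH and off the list of this pathway, fell to 3.23, 4.19 and 4.04 CPM in aggregates, against 37.4, 35.4 and 39.6 CPM in monolayers (log2 −3.28, SE 0.12, edgeR adjusted p = 4.39e-22). IDH2, a mitochondrial isocitrate dehydrogenase, went the other way, at 297, 300.4 and 315 CPM in aggregates, against 154, 146 and 151 CPM in monolayers (log2 1.02, SE 0.050, edgeR adjusted p = 9.65e-19). In the list as a whole, 4 of 25 tested genes rose and 14 fell (median log2 −0.19). Nuclear genes of the respiratory chain shifted little: 7 of 36 tested rose and 15 fell, with a median of log2 −0.07, and without the 4 MYH7 libraries 10 rose and 7 fell. NDUFS3, a core subunit of complex I, was the member that fell most (45.6, 48.8 and 52.4 CPM in aggregates against 109, 103 and 122 CPM in monolayers; log2 −1.19, SE 0.066, edgeR adjusted p = 3.15e-17). NDUFA4L2, a HIF-induced homolog of a chain subunit, rose (2.41, 3.22 and 2.85 CPM in aggregates against 0.225, 0.507 and 0.693 CPM in monolayers; log2 2.52, SE 0.37, edgeR adjusted p = 3.08e-07).

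Among genes that handle acid and bicarbonate, 8 of 15 tested rose and 4 fell, with CA12, another outer carbonic anhydrase, higher (log2 0.99, SE 0.067, edgeR adjusted p = 7.03e-15). The bicarbonate transporter SLC4A8 had 1.53, 1.89 and 1.90 CPM in aggregates, against 7.25, 7.06 and 9.94 CPM in monolayers (log2 −2.18, SE 0.21, edgeR adjusted p = 7.26e-11), lower in every aggregate library. Glycogen genes also moved in both directions. Of 14 tested, 5 rose and 6 fell, or 3 fell without the 4 MYH7 libraries. The phosphorylase PYGB, which breaks glycogen down, rose (log2 0.76, SE 0.049, edgeR adjusted p = 1.67e-15). The muscle-type synthase GYS1 fell (log2 −0.77, SE 0.059, edgeR adjusted p = 1.45e-13).

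All 34 genes of mitosis fell, each at least 2-fold, against 8.11% of all genes. Their median was log2 −1.97, and the list summed to 543, 611 and 644 CPM in aggregates and to 2680.0, 2683 and 2731 CPM in monolayers, a ratio of 0.222 (exact permutation test, two-sided p = 0.1, the smallest that 3 against 3 libraries allow). HMMR, a hyaluronan receptor that acts at the spindle, had 4.995, 4.65 and 5.17 CPM in aggregates, against 46.2, 46.3 and 45.9 CPM in monolayers (log2 −3.23, SE 0.12, edgeR adjusted p = 1.55e-22), with no overlap and little spread in either group. CENPE, a kinetochore motor, stood at 7.93, 11.8 and 9.34 CPM in aggregates, against 60.5, 60.4 and 60.4 CPM in monolayers (log2 −2.63, SE 0.12, edgeR adjusted p = 4.29e-17). The spindle checkpoint kinase TTK had 5.11, 5.36 and 6.18 CPM in aggregates, against 36.3, 31.8 and 29.4 CPM in monolayers (log2 −2.55, SE 0.12, edgeR adjusted p = 2.2e-19). KIF20A, a kinesin of cytokinesis, was at 8.17, 8.73 and 9.16 CPM in aggregates, against 49.8, 49.8 and 51.4 CPM in monolayers (log2 −2.53, SE 0.095, edgeR adjusted p = 5.58e-22). The mitotic transcription factor FOXM1 had 11.9, 14.3 and 15.04 CPM in aggregates, against 73.96, 74.4 and 77.6 CPM in monolayers (log2 −2.45, SE 0.079, edgeR adjusted p = 1.37e-23). No aggregate library reached any monolayer library for these genes. Off the list, the cytokinesis kinesin KIF14 (log2 −3.42, SE 0.11, edgeR adjusted p = 2.03e-23) and the kinetochore scaffold KNL1 (log2 −3.01, SE 0.12, edgeR adjusted p = 6.48e-19) fell too. The list's smallest falls were in the kinetochore subunits SPC24 (log2 −1.47) and SPC25 (−1.46). MKI67, the proliferation antigen Ki-67, had 29.03, 35.5 and 32.7 CPM in aggregates, against 194, 187 and 197 CPM in monolayers (log2 −2.57, SE 0.10, edgeR adjusted p = 4.17e-15).

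Promoters of mitotic genes often carry a CCAAT box and a cell cycle homology region, through which MuvB complexes act. The promoters of HMMR, the cyclin gene CCNB2 and the topoisomerase gene TOP2A are printed on the same window, build and strand convention as above, with TTTGAA and CCAAT, searched on both strands, in capitals; ATTGG is CCAAT read on the other strand.
HMMR, chr5:163460382-163460681, plus strand: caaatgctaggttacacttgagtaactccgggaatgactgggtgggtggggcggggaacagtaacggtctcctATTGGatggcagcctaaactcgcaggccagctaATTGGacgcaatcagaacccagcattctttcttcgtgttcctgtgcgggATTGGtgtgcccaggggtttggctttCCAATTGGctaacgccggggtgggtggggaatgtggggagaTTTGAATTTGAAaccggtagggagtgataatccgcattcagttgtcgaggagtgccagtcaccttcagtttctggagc
CCNB2, chr15:59104896-59105195, plus strand: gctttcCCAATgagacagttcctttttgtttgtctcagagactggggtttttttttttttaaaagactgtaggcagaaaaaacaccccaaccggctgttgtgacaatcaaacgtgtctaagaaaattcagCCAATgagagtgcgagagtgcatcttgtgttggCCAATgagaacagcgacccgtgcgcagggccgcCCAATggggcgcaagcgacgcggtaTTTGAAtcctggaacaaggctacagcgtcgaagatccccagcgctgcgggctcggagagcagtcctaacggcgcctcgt
TOP2A, chr17:40417847-40418146, minus strand: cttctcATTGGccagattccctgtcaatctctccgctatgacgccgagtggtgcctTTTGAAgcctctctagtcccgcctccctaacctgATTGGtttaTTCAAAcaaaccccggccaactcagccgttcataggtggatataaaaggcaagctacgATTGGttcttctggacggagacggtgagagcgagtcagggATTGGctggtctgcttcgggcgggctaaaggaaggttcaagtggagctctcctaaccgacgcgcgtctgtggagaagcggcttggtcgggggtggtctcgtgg
In HMMR the letters CCAATTGG join a CCAAT on each strand, so these matches overlap. The printed promoters are among those of the list with most matches, at 7, 5 and 6. The promoters of CENPE, which fell by log2 −2.63, and of MYBL2, CDC25C and KIF2C held 0. TTTGAA stood in 18 of 28 mitotic promoters in the table (64.3%), against 10.2% of all 12190, and CCAAT in 20 (71.4%), against 36.4%. Among all genes that fell at least 2-fold TTTGAA was in 19.6% of promoters, and among those that rose at least 2-fold in 9.75%. CCNB2, the cyclin B2 gene, changed by log2 −2.11 and TOP2A by −2.27.

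Replication genes fell as a group but by less. Of 35 tested, 33 fell, 13 of them at least 2-fold, and 1 rose, with a median of log2 −0.77. ORC1, a subunit of the origin recognition complex, had 2.23, 2.19 and 2.14 CPM in aggregates, against 9.04, 10.5 and 9.01 CPM in monolayers (log2 −2.12, SE 0.15, edgeR adjusted p = 2.61e-14). RRM2, the regulated subunit of ribonucleotide reductase, was at 23.6, 25.5 and 24.6 CPM in aggregates, against 76.9, 82.5 and 85.9 CPM in monolayers (log2 −1.74, SE 0.094, edgeR adjusted p = 4.56e-15). The licensing factor CDT1 had 5.23, 4.80 and 3.81 CPM in aggregates, against 11.5, 13.9 and 14.4 CPM in monolayers (log2 −1.53, SE 0.14, edgeR adjusted p = 6.23e-12). The groups were separate for all 3. Core subunits of the MCM helicase other than MCM3 fell by less, from log2 −0.55 for MCM5 to −0.25 for MCM6, and MCM3 was the gene that rose (43.4, 43.04 and 45.1 CPM in aggregates against 29.5, 29.6 and 30.4 CPM in monolayers; log2 0.55, SE 0.071, edgeR adjusted p = 2.23e-08). RFC4, a clamp loader subunit, did not pass (log2 0.07, edgeR adjusted p = 0.4).

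Regulators of G1 were divided. E2F1, a driver of S-phase genes, fell to 9.81, 9.34 and 9.69 CPM in aggregates, against 22.7, 21.7 and 22.4 CPM in monolayers (log2 −1.21, SE 0.098, edgeR adjusted p = 6e-13). The atypical repressor E2F7 was at 1.88, 2.65 and 2.56 CPM in aggregates, against 9.04, 9.98 and 8.92 CPM in monolayers (log2 −1.97, SE 0.17, edgeR adjusted p = 1.77e-12). RB1, the retinoblastoma protein, fell (log2 −0.96, SE 0.075, edgeR adjusted p = 3.89e-13) while its relative RBL2, a subunit of the DREAM complex, rose, with 107, 105 and 103 CPM in aggregates, against 71.04, 75.5 and 78.2 CPM in monolayers (log2 0.48, SE 0.050, edgeR adjusted p = 2.7e-10). CDK6 (log2 0.80, SE 0.10, edgeR adjusted p = 7.31e-08) and CDK4 (log2 0.42, SE 0.066, edgeR adjusted p = 1.26e-06), the kinases of D cyclins, were higher. CCND1, cyclin D1, had 278, 280.4 and 299.6 CPM in aggregates, against 269, 272 and 278 CPM in monolayers, a difference that did not pass (log2 0.07, edgeR adjusted p = 0.203) although the groups did not overlap. In all, 6 of 27 tested rose and 14 fell (median log2 −0.28), and 7 fell without the 4 MYH7 libraries. Among histone genes, 6 of 23 tested rose and 9 fell (median log2 −0.31). At least 2-fold, 2 rose and 5 fell, and the lowest member stood at log2 −2.22. H4C8 rose, with 10.7, 12.4 and 10.9 CPM in aggregates, against 1.46, 1.72 and 1.29 CPM in monolayers (log2 2.91, SE 0.17, edgeR adjusted p = 2.35e-16). The polyadenylated replacement histone H3-3B did not pass (log2 0.12, edgeR adjusted p = 0.148, or 0.0355 without monolayer replicate 3).

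Genes of growth and ribosome production were more often higher. MYC, the growth-promoting transcription factor, had 276, 262 and 291 CPM in aggregates, against 96.3, 101 and 107 CPM in monolayers (log2 1.45, SE 0.056, edgeR adjusted p = 1.28e-21), with every aggregate library above every monolayer library. UBTF, a factor of ribosomal RNA transcription (log2 1.12, SE 0.060, edgeR adjusted p = 1.31e-17), ODC1, the first enzyme of polyamine synthesis (log2 1.07, SE 0.076, edgeR adjusted p = 1.88e-12), and CAD, which starts pyrimidine synthesis (log2 0.93, SE 0.051, edgeR adjusted p = 1.72e-17), rose as well. In the list of MYC and ribosome biogenesis 18 of 29 tested rose and 4 fell (median log2 0.30), with 1 fall left without the 4 MYH7 libraries, 2 without aggregate replicate 2 and 2 in a fit of the compared groups alone. The abundant nucleolar proteins NCL (log2 0.11, edgeR adjusted p = 0.0536) and NPM1 (log2 −0.03, edgeR adjusted p = 0.598) did not pass, although NCL did without aggregate replicate 1 (adjusted p = 0.00772) or monolayer replicate 2 (0.0336) and with upper-quartile scaling (0.0169). Of 32 tested ribosomal protein genes, 29 rose and 0 fell, with a median of log2 0.52 and 1 rise of at least 2-fold, that of RPS27 (88.5, 87.05 and 86.2 CPM in aggregates against 21.9, 21.5 and 22.8 CPM in monolayers; log2 1.98, SE 0.084, edgeR adjusted p = 8.4e-20). RPL13 (log2 0.95, edgeR adjusted p = 2.82e-12) and RPL10 (log2 0.92, edgeR adjusted p = 2.93e-14) followed. RPSA, RPL22 and RPS9 were the members that did not pass; RPS9 did with the replicate block over the compared groups (edgeR adjusted p = 0.00391) and without aggregate replicate 1 (0.0187) or monolayer replicate 3 (0.00176). Ribosomal protein genes have many processed copies in the genome, so their counts are uncertain where reads are shared.

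Chaperones of the cytosol were more often lower. Of 26 tested heat shock genes 16 were lower and 3 higher (median log2 −0.43). HSPH1, a nucleotide exchange factor of HSP70, had 124, 131 and 147 CPM in aggregates, against 348, 332 and 344 CPM in monolayers (log2 −1.35, SE 0.068, edgeR adjusted p = 2.8e-17). HSP90AA1, the inducible HSP90, was at 1530.0, 1624 and 1882 CPM in aggregates, against 3376, 3201 and 3241 CPM in monolayers (log2 −0.96, SE 0.061, edgeR adjusted p = 1.27e-15). HSPA8, the constitutive HSP70, had 1222, 1265 and 1420.0 CPM in aggregates, against 2363, 2342 and 2329 CPM in monolayers (log2 −0.85, SE 0.059, edgeR adjusted p = 1.08e-14). All aggregate libraries were below all monolayer libraries for these genes. HSPA1A fell in step (log2 −0.93, edgeR adjusted p = 3.18e-08), but its sequence is nearly identical to that of HSPA1B and reads may be shared. The small chaperone HSPB1 overlapped between groups (879, 828 and 846 CPM in aggregates against 1030.0, 766 and 770.0 CPM in monolayers; log2 −0.01, edgeR adjusted p = 0.968). In the endoplasmic reticulum HSPA5, the chaperone BiP, rose to 1380.0, 1444 and 1379 CPM in aggregates, against 652, 671 and 696 CPM in monolayers (log2 1.06, SE 0.060, edgeR adjusted p = 5.05e-17), as did the stress sensors ERN1 (log2 0.99, edgeR adjusted p = 1.55e-12) and ATF6 (log2 0.68, edgeR adjusted p = 6.62e-12). XBP1, the factor that ERN1 activates by splicing, fell, with 954, 962 and 943 CPM in aggregates, against 1313, 1455 and 1529 CPM in monolayers (log2 −0.59, SE 0.064, edgeR adjusted p = 1.63e-09), and gene counts do not show its splicing. Of 21 tested genes of the unfolded protein response 12 rose and 5 fell (median log2 0.15).

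In the list of ATF4 and its targets, which holds stress genes and genes of amino acid synthesis and transport, 18 of 27 tested rose and 6 fell (median log2 0.46); without the 4 MYH7 libraries 3 were lower. VLDLR, a lipoprotein receptor that ATF4 induces, had 64.8, 66.6 and 67.1 CPM in aggregates, against 6.57, 8.42 and 8.27 CPM in monolayers (log2 3.08, SE 0.086, edgeR adjusted p = 2.15e-25). The pseudokinase TRIB3 was at 615, 601 and 625 CPM in aggregates, against 226, 236 and 248 CPM in monolayers (log2 1.38, SE 0.089, edgeR adjusted p = 1.89e-11). DDIT3, which encodes the stress factor CHOP, had 53.5, 51.01 and 57.7 CPM in aggregates, against 18.4, 24.1 and 21.6 CPM in monolayers (log2 1.33, SE 0.14, edgeR adjusted p = 2.04e-07). The aggregates were higher throughout for these 3. PYCR1, an enzyme of proline synthesis, rose too (log2 1.14, edgeR adjusted p = 2.92e-15), while the glutamine transporter SLC38A1 fell, with 477, 502 and 548 CPM in aggregates, against 1012, 943 and 953 CPM in monolayers (log2 −0.93, SE 0.064, edgeR adjusted p = 2.49e-14). In the list of insulin and FOXO signalling 12 of 22 tested rose and 5 fell (median log2 0.28). IGFBP3, a binding protein of insulin-like growth factors, stood at 4.82, 8.47 and 7.08 CPM in aggregates, against 0.449, 0.585 and 0.277 CPM in monolayers (log2 3.92, SE 0.31, edgeR adjusted p = 6.48e-13). PIK3IP1, an inhibitor of PI3K, had 25.4, 22.9 and 22.5 CPM in aggregates, against 6.01, 7.49 and 7.996 CPM in monolayers (log2 1.71, SE 0.12, edgeR adjusted p = 1.3e-14). FOXO1 fell (log2 −0.68, edgeR adjusted p = 1.83e-09) and FOXO3 rose (log2 0.94, edgeR adjusted p = 1.43e-14). TXNIP, a glucose-responsive inhibitor of glucose uptake, overlapped between groups and did not pass (log2 −0.12, edgeR adjusted p = 0.627).

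Genes of sterol and fatty acid synthesis were more often lower. Of 25 tested genes of sterol synthesis and uptake, 20 fell and 1 rose (median log2 −0.40), 3 of the falls at least 2-fold. FDPS, which makes farnesyl diphosphate, was at 119, 122 and 123 CPM in aggregates, against 316, 291 and 316 CPM in monolayers (log2 −1.34, SE 0.048, edgeR adjusted p = 2.11e-22). IDI1, the isomerase before it, had 33.8, 30.99 and 36.6 CPM in aggregates, against 81.6, 75.7 and 74.9 CPM in monolayers (log2 −1.20, SE 0.082, edgeR adjusted p = 2.17e-14). No library overlapped between the groups. The feedback protein INSIG1 did not pass (log2 −0.15, edgeR adjusted p = 0.0794). Among fatty acid and lipid droplet genes 16 of 28 tested fell and 7 rose (median log2 −0.21). FASN, the fatty acid synthase, was at 1633, 1458 and 1567 CPM in aggregates, against 2700.0, 2771 and 3180.0 CPM in monolayers (log2 −0.89, SE 0.060, edgeR adjusted p = 5.6e-15). The desaturase SCD had 858, 833 and 782 CPM in aggregates, against 1580.0, 1622 and 1658 CPM in monolayers (log2 −0.97, SE 0.052, edgeR adjusted p = 9.61e-18). HILPDA, a HIF-induced inhibitor of lipolysis, had 696, 818 and 879.6 CPM in aggregates, against 140.2, 149.5 and 181 CPM in monolayers (log2 2.34, SE 0.10, edgeR adjusted p = 2.22e-13). The droplet coat protein PLIN2 was at 13.5, 17.6 and 15.8 CPM in aggregates, against 3.88, 4.80 and 4.85 CPM in monolayers (log2 1.78, SE 0.14, edgeR adjusted p = 1.59e-13), while its relative PLIN3 fell (log2 −0.46, edgeR adjusted p = 5.32e-08). DGAT2, which makes triglyceride, rose as well (log2 1.29, SE 0.15, edgeR adjusted p = 4.11e-09). SREBF1, the factor that drives these synthesis genes, did not pass (494, 435 and 399 CPM in aggregates against 424, 449 and 495 CPM in monolayers; log2 −0.04, edgeR adjusted p = 0.586), nor did PNPLA2, a lipase of the droplet (log2 −0.06, edgeR adjusted p = 0.553).

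Of the HER receptors, ERBB2 was lower and EGFR, its relative, higher in aggregates. ERBB2 had 6620.0, 6180.0 and 5767 CPM in aggregates, against 7571, 7435 and 8189 CPM in monolayers (log2 −0.32, SE 0.053, edgeR adjusted p = 2.4e-06), a small fall with no overlap of libraries. EGFR (chr7:55019017-55211628 on GRCh38.p14) had 305, 321 and 315 CPM in aggregates, against 83.96, 86.4 and 88.7 CPM in monolayers (log2 1.86, SE 0.063, edgeR adjusted p = 4.44e-23). ERBB3, the partner that recruits PI3K, had 352, 345 and 347 CPM in aggregates, against 274, 276 and 302 CPM in monolayers (log2 0.29, SE 0.051, edgeR adjusted p = 6.65e-06), a call lost without the 4 MYH7 libraries (0.20, adjusted p = 0.0578). ERBB4 was at 0.764, 1.07 and 0.951 CPM in aggregates against 1.52, 1.75 and 2.08 CPM in monolayers (log2 −0.94, edgeR adjusted p = 0.0143), lost without aggregate replicate 1 (adjusted p = 0.0605) or monolayer replicate 3 (0.0531). Of the ligands, HBEGF rose, with 7.17, 7.35 and 6.005 CPM in aggregates, against 3.31, 2.85 and 2.73 CPM in monolayers (log2 1.22, SE 0.20, edgeR adjusted p = 4.03e-06), and EGF rose slightly (log2 0.17, edgeR adjusted p = 0.00762), a call lost without monolayer replicate 2 (adjusted p = 0.0518). AREG, EREG, TGFA, BTC, NRG1, NRG2 and NRG4 were at most 2.5 CPM in every library and did not pass, except BTC without aggregate replicate 2 (edgeR adjusted p = 0.03) and NRG1 without monolayer replicate 3 (0.0416). The feedback inhibitors ERRFI1, which binds EGFR and HER2, with 100.4, 118 and 111 CPM in aggregates, against 36.1, 32.1 and 29.3 CPM in monolayers (log2 1.76, SE 0.072, edgeR adjusted p = 1.19e-20), and LRIG1 (log2 0.44, SE 0.060, edgeR adjusted p = 9.17e-08) rose. GRB7, an adaptor coamplified with ERBB2, did not pass (831, 783 and 719 CPM in aggregates against 719, 721 and 784 CPM in monolayers; log2 0.07, edgeR adjusted p = 0.267, or 0.0465 without aggregate replicate 3). Of 17 tested members 7 rose and 2 fell (median log2 0.17), and 4 rose without the 4 MYH7 libraries.

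Immediate early genes and feedback genes of the MAPK pathway rose, 18 of 25 tested, with 10 at least 2-fold and a median of log2 0.73. FOS, an AP-1 subunit, had 51.95, 49.9 and 41.3 CPM in aggregates, against 2.42, 3.74 and 2.68 CPM in monolayers (log2 3.99, SE 0.13, edgeR adjusted p = 1.28e-23). The ETS factor ETV4 was at 48.8, 47.3 and 44.2 CPM in aggregates, against 5.39, 5.97 and 4.76 CPM in monolayers (log2 3.11, SE 0.096, edgeR adjusted p = 3.91e-24). DUSP5, a phosphatase of ERK, stood at 53.8, 59.2 and 51.8 CPM in aggregates, against 13.8, 10.8 and 9.34 CPM in monolayers (log2 2.29, SE 0.14, edgeR adjusted p = 5.68e-12). For all 3 the lowest aggregate library was well above the highest monolayer library. SPRY4, an inhibitor of receptor signalling, had 40.8, 42.4 and 42.8 CPM in aggregates, against 21.8, 22.9 and 22.6 CPM in monolayers (log2 0.90, SE 0.071, edgeR adjusted p = 2.8e-13). The 3 members that fell were EGR3 (log2 −2.0), ETV5 (−0.93) and IER3 (−0.25); without monolayer replicate 2 a single fall was left, without aggregate replicate 3 that of ETV5 was lost (adjusted p = 0.135), and without the 4 MYH7 libraries none was left. FOSB and SPRY2 overlapped between groups and did not pass.

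Secretory products of mammary epithelium were among the widest rises. SCGB2A2, mammaglobin A, had 964, 916 and 1221 CPM in aggregates, against 41.3, 40.7 and 41.97 CPM in monolayers (log2 4.64, SE 0.12, edgeR adjusted p = 2.66e-17). SCGB1D2, which pairs with it, was at 66.5, 64.3 and 88.3 CPM in aggregates, against 2.13, 2.46 and 2.17 CPM in monolayers (log2 5.00, SE 0.18, edgeR adjusted p = 5.99e-15). Its relative SCGB2A1 had 13.9, 13.02 and 18.6 CPM in aggregates, against 1.12, 1.48 and 0.878 CPM in monolayers (log2 3.67, SE 0.20, edgeR adjusted p = 1.87e-16). The 3 lie in a cluster of related genes on chromosome 11. TFF3, a trefoil peptide of mucus, was at 9.402, 9.29 and 13.8 CPM in aggregates, against 1.40, 1.60 and 1.94 CPM in monolayers (log2 2.70, SE 0.20, edgeR adjusted p = 6.3e-14), and the membrane mucin MUC1 rose by log2 2.23. The mucin MUC16, the antigen CA125, was lower, with 170.4, 159 and 142 CPM in aggregates, against 326, 292 and 296 CPM in monolayers (log2 −0.96, SE 0.11, edgeR adjusted p = 3.83e-07). Of 27 genes listed 22 were tested, 15 rose, 11 of them at least 2-fold, and 1 fell, with a median of log2 1.03. AGR3 did not pass the filter on low counts, and LALBA, CSN2, CSN3 and BTN1A1, among them milk protein genes, were not analysed here. PIGR, the transporter of immunoglobulin A, was higher in each aggregate library but did not pass (265, 219.7 and 228 CPM in aggregates against 175, 190.2 and 197 CPM in monolayers; log2 0.34, edgeR adjusted p = 0.0796). In a fit of the compared groups alone PIGR passed (edgeR adjusted p = 0.000438, or 0.00162 with the replicate block).

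Factors of luminal identity did not share a direction: 9 of 24 tested rose, 11 fell, and the median was log2 −0.01. ELF5, a factor of the alveolar lineage, had 8.46, 8.78 and 10.1 CPM in aggregates, against 3.59, 3.39 and 3.10 CPM in monolayers (log2 1.44, SE 0.13, edgeR adjusted p = 7.81e-12). ELF3, an epithelial factor of the same family, was at 660.5, 633 and 662 CPM in aggregates, against 246, 257 and 271 CPM in monolayers (log2 1.34, SE 0.053, edgeR adjusted p = 3.32e-21). Both were higher in each aggregate library, and the next genes were lower in each. GATA3, a factor of luminal cells, was at 3.64, 3.62 and 4.70 CPM in aggregates, against 7.86, 7.84 and 8.78 CPM in monolayers (log2 −1.04, SE 0.18, edgeR adjusted p = 5.98e-06). TFAP2B fell to 0.705, 1.12 and 0.951 CPM in aggregates, against 3.09, 4.49 and 3.51 CPM in monolayers (log2 −1.99, SE 0.27, edgeR adjusted p = 1.06e-07) while its relative TFAP2C did not pass (log2 −0.04, edgeR adjusted p = 0.493). SPDEF, a factor of secretory cells, did not pass either (342, 333 and 354 CPM in aggregates against 314, 331 and 364 CPM in monolayers; log2 0.03, edgeR adjusted p = 0.669). Of 8 tested keratins in a list of their own, 6 rose and 2 fell (median log2 0.76). KRT23 (log2 2.82, SE 0.23, edgeR adjusted p = 5.58e-13), KRT80 (log2 1.72, SE 0.066, edgeR adjusted p = 1.4e-21) and KRT19 (log2 0.70, SE 0.064, edgeR adjusted p = 1.81e-11) rose. KRT8 and its main partner KRT18 fell: KRT8 had 1274, 1317 and 1491 CPM in aggregates, against 2140.0, 2107 and 2267 CPM in monolayers (log2 −0.67, SE 0.057, edgeR adjusted p = 1.96e-12) and KRT18 log2 −0.18, a call lost without the 4 MYH7 libraries (adjusted p = 0.192). KRT81 and KRT86, which are close copies, rose (log2 0.82, edgeR adjusted p = 8.46e-06 and log2 1.49, edgeR adjusted p = 2.55e-08) with reads that may be shared.

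In the list of junctions and polarity, 14 of 32 tested genes rose and 8 fell (median log2 0.01). PKP2, plakophilin of desmosomes, had 93.96, 102 and 104 CPM in aggregates, against 26.8, 23.9 and 26.2 CPM in monolayers (log2 1.97, SE 0.064, edgeR adjusted p = 1.55e-23). DSP, desmoplakin, was at 421, 454 and 489.6 CPM in aggregates, against 292, 290.3 and 284 CPM in monolayers (log2 0.66, SE 0.056, edgeR adjusted p = 2.23e-12). TJP1, the scaffold ZO-1, fell, with 88.9, 97.7 and 101 CPM in aggregates, against 147, 143 and 137 CPM in monolayers (log2 −0.57, SE 0.060, edgeR adjusted p = 3.65e-10). The abundant claudins CLDN4 (log2 0.07, edgeR adjusted p = 0.278) and CLDN7 (log2 0.11, edgeR adjusted p = 0.0784) did not pass, except CLDN7 with upper-quartile scaling (0.0359). Among 29 receptors of matrix 11 rose and 8 fell, and without the 4 MYH7 libraries 7 rose and 5 fell. Leaving out monolayer replicate 2 also gave 5 falls. ITGA5, the fibronectin receptor subunit, was at 34.02, 33.2 and 33.5 CPM in aggregates, against 9.997, 9.44 and 11.6 CPM in monolayers (log2 1.70, SE 0.089, edgeR adjusted p = 7.12e-18). SDC4, a heparan sulfate receptor, rose too (log2 1.28, SE 0.057, edgeR adjusted p = 7.28e-20). SDC3, another syndecan, fell to 35.4, 35.7 and 33.1 CPM in aggregates, against 111, 109.9 and 120.4 CPM in monolayers (log2 −1.71, SE 0.067, edgeR adjusted p = 2.04e-21). The collagen receptor subunit ITGA1 also fell (log2 −1.01, SE 0.076, edgeR adjusted p = 1.01e-13).

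Matrix proteins and proteases held wide changes at low levels, with 12 of 34 tested higher, 9 lower and a median of log2 0.00. COL17A1, the hemidesmosome collagen, had 4.64, 3.47 and 3.51 CPM in aggregates, against 0.225, 0.312 and 0.324 CPM in monolayers (log2 3.70, SE 0.32, edgeR adjusted p = 2.27e-12). COL13A1, another membrane collagen off the list, was at 6.46, 5.62 and 5.41 CPM in aggregates, against 0.337, 0.234 and 0 CPM in monolayers (log2 4.93, SE 0.37, edgeR adjusted p = 3.13e-13). MMP15, a membrane protease, rose (log2 1.83, SE 0.11, edgeR adjusted p = 2.23e-11). The collagenase MMP13 fell to 0.176, 0.255 and 0.238 CPM in aggregates, against 5.11, 4.02 and 3.56 CPM in monolayers (log2 −4.19, SE 0.41, edgeR adjusted p = 9.1e-11). MMP2, MMP14 and SERPINE2 fell as well (log2 −3.34, −2.79 and −2.47), but their level followed the melanocyte sum in part: MMP14 was at 6.40, 13.3 and 2.96 CPM in monolayer replicates 1 to 3, where that sum was 83.2, 130.1 and 60.4 CPM. The part of melanocyte transcripts in these falls was not tested.

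In the list of YAP, TEAD, their targets and actin genes, 15 of 33 tested rose and 12 fell (median log2 0.07). CCN2, a classic target, had 24.6, 24.8 and 22.2 CPM in aggregates, against 5.62, 7.29 and 5.82 CPM in monolayers (log2 1.92, SE 0.17, edgeR adjusted p = 2.41e-09). CCN1, a related target, was at 85.1, 91.03 and 82.05 CPM in aggregates, against 42.9, 38.2 and 37.2 CPM in monolayers (log2 1.13, SE 0.079, edgeR adjusted p = 1.05e-13). Of the DNA-binding partners of YAP, TEAD4 rose (log2 1.30, SE 0.073, edgeR adjusted p = 4.5e-17) and TEAD1 fell (log2 −1.77, SE 0.059, edgeR adjusted p = 2.13e-23). WWTR1, which encodes TAZ, fell (log2 −0.68, SE 0.060, edgeR adjusted p = 4.93e-12). ACTB did not pass (3763, 3898 and 4268 CPM in aggregates against 3784, 3919 and 3676 CPM in monolayers; log2 0.07, edgeR adjusted p = 0.241).

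Several targets of Notch rose. HEY1, a repressor, had 23.1, 22.1 and 22.4 CPM in aggregates, against 4.21, 3.63 and 4.30 CPM in monolayers (log2 2.48, SE 0.12, edgeR adjusted p = 1.4e-18). Its relative HES1 was at 84.7, 76.3 and 78.1 CPM in aggregates, against 35.9, 31.8 and 36.6 CPM in monolayers (log2 1.20, SE 0.073, edgeR adjusted p = 3.41e-16). NRARP, a feedback inhibitor, had 3.82, 2.86 and 3.27 CPM in aggregates, against 0.786, 1.17 and 0.647 CPM in monolayers (log2 1.90, SE 0.26, edgeR adjusted p = 6.64e-08). Their monolayer libraries all lay below their aggregate libraries. SOX9, a progenitor factor, was at 24.3, 23.4 and 29.97 CPM in aggregates, against 4.94, 6.79 and 4.62 CPM in monolayers (log2 2.23, SE 0.14, edgeR adjusted p = 3.63e-15). Genes used as markers of stem-like cells did not move together with it. ALDH1A1, a retinaldehyde dehydrogenase, fell to 6.64, 8.53 and 9.34 CPM in aggregates, against 47.9, 47.5 and 44.3 CPM in monolayers (log2 −2.51, SE 0.13, edgeR adjusted p = 7.03e-17). PROM1, the antigen CD133, fell (log2 −1.58, SE 0.068, edgeR adjusted p = 2.75e-20), and CD44 did not pass (log2 −0.11, edgeR adjusted p = 0.243). Of 20 tested in the list 12 rose and 3 fell (median log2 0.65). In the list of TGF-beta, BMP and WNT signalling, 17 of 33 tested rose and 10 fell (median log2 0.32). Of the ligands, BMP7 (log2 1.69, SE 0.11, edgeR adjusted p = 1.86e-15), BMP4 (log2 1.65, SE 0.37, edgeR adjusted p = 0.00092) and TGFB1 (log2 1.35) rose. The ligand WNT5A fell (log2 −0.65, SE 0.15, edgeR adjusted p = 0.000322), a call lost without the 4 MYH7 libraries (adjusted p = 0.106). Of the receptors, TGFBR1 (log2 −0.68, SE 0.074, edgeR adjusted p = 3.09e-09), BMPR2 (log2 −0.80, SE 0.065, edgeR adjusted p = 7.17e-13) and LRP6 (log2 −0.67, SE 0.080, edgeR adjusted p = 4.95e-09) fell, and FZD7 rose (log2 1.20, edgeR adjusted p = 1.25e-08).

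The widest rise of all named genes was that of MT1X, a metallothionein that binds zinc and copper, with 15.2, 14.04 and 14.9 CPM in aggregates, against 0.281, 0.390 and 0.185 CPM in monolayers (log2 5.63, SE 0.21, edgeR adjusted p = 7.69e-22). MT2A, the abundant isoform, had 70.5, 59.6 and 67.8 CPM in aggregates, against 8.99, 10.6 and 8.23 CPM in monolayers (log2 2.82, SE 0.13, edgeR adjusted p = 1.43e-13). The zinc importer SLC39A10 fell to 52.3, 56.6 and 55.00 CPM in aggregates, against 382, 332 and 338 CPM in monolayers (log2 −2.68, SE 0.073, edgeR adjusted p = 7.02e-24). The groups were far apart for all 3. MT1F and MT1G were under 1 CPM in every library and did not pass. The list also holds genes other than metallothioneins. Of 14 listed genes 7 were tested, of which 2 rose and 3 fell (median log2 −0.34). Besides SLC39A10, the falls were those of MTF1 (log2 −0.35) and SLC30A1 (−0.34). Both calls were lost without the 4 MYH7 libraries (log2 −0.28 and −0.18). The promoter of MT1X is printed for its metal response cores, the letters TGCGCNC and TGCACNC on both strands, in capitals.
MT1X, chr16:56682220-56682519, plus strand: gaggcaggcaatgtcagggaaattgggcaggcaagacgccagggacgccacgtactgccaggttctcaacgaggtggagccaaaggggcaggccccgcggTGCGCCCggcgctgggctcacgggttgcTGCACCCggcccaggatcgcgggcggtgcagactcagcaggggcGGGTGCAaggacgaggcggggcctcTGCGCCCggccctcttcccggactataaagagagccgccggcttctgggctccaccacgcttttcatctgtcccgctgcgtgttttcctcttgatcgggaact
Either core stood in 3 of 5 promoters of this list found in the table, those of MT1X, MT2A and SLC30A1, against 38.1% of all promoters. The promoters of MTF1 and SLC39A10 held neither, and 5 promoters are too few to set apart from that share. Genes of iron storage rose. FTH1, the ferritin heavy chain, had 1333, 1344 and 1165 CPM in aggregates, against 397, 325 and 268 CPM in monolayers (log2 1.96, SE 0.20, edgeR adjusted p = 4.01e-07). FTL, the light chain, rose too (log2 0.83, SE 0.084, edgeR adjusted p = 1.21e-08). Ferritin genes have processed copies, so their counts are uncertain where reads are shared. HMOX1, heme oxygenase, and TXNRD1, thioredoxin reductase, which share the regulator NRF2 with ferritin, fell (log2 −0.72, edgeR adjusted p = 6.05e-07 and log2 −0.85, edgeR adjusted p = 1.1e-11), and 7 of 22 tested genes of the NRF2 list rose and 11 fell.

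Several other genes ranked among the widest changes. CEL, a bile salt-activated lipase, had 16.8, 15.8 and 16.2 CPM in aggregates, against 0.562, 0.546 and 0.462 CPM in monolayers (log2 4.94, SE 0.17, edgeR adjusted p = 5.19e-23). PTGS1, the prostaglandin synthase COX-1, was at 188, 189 and 194 CPM in aggregates, against 12.1, 11.97 and 11.4 CPM in monolayers (log2 4.01, SE 0.18, edgeR adjusted p = 9.04e-12). GPRC5C, an orphan receptor, rose as well (log2 4.14, SE 0.13, edgeR adjusted p = 1.25e-23). KDR, a VEGF receptor, was at 9.76, 9.34 and 7.25 CPM in aggregates, against 0.393, 0.585 and 0 CPM in monolayers (log2 4.68, SE 0.35, edgeR adjusted p = 5.34e-12), while the endothelial genes PECAM1 and CDH5 did not rise. Of 4 tested genes of the endothelial list, 2 were called higher and 1 lower. VWF was the other gene called higher, a call lost without aggregate replicate 3 (edgeR adjusted p = 0.0651) or monolayer replicate 1 (0.0815). The kinase gene PNCK rose too (log2 4.94). On the falling side DIO2, which activates thyroid hormone, had 1.41, 2.14 and 1.60 CPM in aggregates, against 29.9, 24.3 and 22.5 CPM in monolayers (log2 −3.87, SE 0.21, edgeR adjusted p = 2.09e-14). SYP, synaptophysin, was at 1.76, 1.28 and 1.43 CPM in aggregates, against 12.4, 12.3 and 14.4 CPM in monolayers (log2 −3.13, SE 0.17, edgeR adjusted p = 2.89e-17). LRTM2 (log2 −3.26), the cytochrome CYP4F8 (−3.23) and the egg coat gene ZP1 (−3.11) also fell. TARP and TRGC2 fell alike (−3.06 and −3.17) but overlap in the T cell receptor gamma locus, so their counts are uncertain.

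Some of the steepest falls were in genes that moved with melanocyte markers. ADAM23, a membrane protein of the ADAM family, had 0.235, 0.0511 and 0.297 CPM in aggregates, against 3.88, 12.2 and 2.50 CPM in monolayers (log2 −5.03, SE 0.77, edgeR adjusted p = 2.97e-05). HTR2B, a serotonin receptor, was at 0.294, 0.357 and 0.476 CPM in aggregates, against 4.27, 10.2 and 2.31 CPM in monolayers (log2 −3.90, SE 0.59, edgeR adjusted p = 1.48e-05). CITED1, a transcriptional coregulator, had 0.823, 1.17 and 0.595 CPM in aggregates, against 6.96, 14.9 and 5.32 CPM in monolayers (log2 −3.37, SE 0.47, edgeR adjusted p = 5.46e-06). In all 3, monolayer replicate 2 was highest and replicate 3 lowest of its group, the order of the melanocyte sum. PMEL, a protein of melanosomes, had 6.05, 9.04 and 6.005 CPM in aggregates, against 26.3, 42.8 and 22.3 CPM in monolayers (log2 −2.11, SE 0.37, edgeR adjusted p = 0.000121). The melanin enzyme TYRP1 fell as well (log2 −1.88, SE 0.39, edgeR adjusted p = 0.000624), a call lost without the 4 MYH7 libraries (−0.87, adjusted p = 0.351). In the exposed pair the melanocyte sum was 63.8, 76.2 and 103.9 CPM in primed aggregates and 108, 71.4 and 46.5 CPM in exposed monolayers, and there ADAM23, HTR2B and CITED1 changed by log2 0.05, 0.43 and 0.45. Whether melanocyte transcripts account for these falls was not tested. In the list of mesenchymal transition genes, 3 of 10 tested rose and 3 fell (median log2 −0.23). SNAI1 was called higher, a call lost without the 4 MYH7 libraries (log2 0.44). VIM, vimentin, had 18.98, 28.3 and 14.4 CPM in aggregates, against 42.7, 61.5 and 38.6 CPM in monolayers (log2 −1.21, SE 0.37, edgeR adjusted p = 0.0105). SNAI2, a mesenchymal factor, was at 0.470, 0.460 and 0.357 CPM in aggregates, against 1.74, 2.15 and 0.601 CPM in monolayers (log2 −1.79, SE 0.49, edgeR adjusted p = 0.00191). Their replicates followed the order of the melanocyte sum in the monolayers. The call for VIM was lost without monolayer replicate 2 (edgeR adjusted p = 0.0538), and both calls were lost without the 4 MYH7 libraries (0.135 and 0.577).

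Interferon-stimulated genes were more often lower, 14 of 30 tested, with 8 higher and a median of log2 −0.37; without the 4 MYH7 libraries 3 were higher. SAMD9, an antiviral restriction factor, had 5.52, 4.90 and 6.90 CPM in aggregates, against 32.9, 29.7 and 27.2 CPM in monolayers (log2 −2.38, SE 0.13, edgeR adjusted p = 1.17e-17). SAMHD1, a dNTP hydrolase, was at 10.9, 11.6 and 14.8 CPM in aggregates, against 50.1, 47.97 and 44.6 CPM in monolayers (log2 −1.93, SE 0.10, edgeR adjusted p = 4.67e-18). Neither gene overlapped between groups. ISG15, a ubiquitin-like protein, was at 2.12, 2.60 and 2.91 CPM in aggregates, against 6.57, 8.54 and 5.18 CPM in monolayers (log2 −1.41, SE 0.19, edgeR adjusted p = 6.52e-08). IFI27 (0.294, 0.408 and 0.238 CPM in aggregates against 3.59, 7.25 and 1.48 CPM in monolayers; log2 −3.69, edgeR adjusted p = 0.0022) was lower too, a call lost without the 4 MYH7 libraries (adjusted p = 0.294). IFIT3 had 0.411, 0.817 and 0.178 CPM in aggregates, against 1.85, 2.92 and 1.90 CPM in monolayers (log2 −2.21, edgeR adjusted p = 6.04e-06). Monolayer replicate 2, highest in the melanocyte sum, was highest for ISG15, IFI27 and IFIT3, and the part of melanocyte transcripts was not tested. In class I presentation 5 of 18 tested rose and 8 fell, or 4 fell without the 4 MYH7 libraries and 3 rose without monolayer replicate 1 or with library totals as the scale. At least 2-fold, 0 members of class I presentation rose and 2 fell, and the lowest stood at log2 −2.51. HLA-E rose (log2 0.52, edgeR adjusted p = 6.86e-07), with reads that may be shared among HLA genes. B2M did not pass, with 293, 295 and 348 CPM in aggregates, against 306, 312 and 301 CPM in monolayers (log2 0.03, edgeR adjusted p = 0.661). NF-kB genes rose in 11 of 26 tested and fell in 7, or in 7 and 3 without the 4 MYH7 libraries. TNFSF15, a ligand of the TNF family, rose most (10.1, 9.70 and 9.87 CPM in aggregates against 1.97, 1.60 and 1.25 CPM in monolayers; log2 2.64, SE 0.17, edgeR adjusted p = 8.16e-16), followed by the adhesion molecule ICAM1 (log2 1.11, SE 0.14, edgeR adjusted p = 1.43e-08).

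Cell death genes of the BCL2 family were mostly higher, 11 of 15 tested. The 4 that fell became 2 without any single aggregate replicate or without monolayer replicate 2 or 3, and 1 with the replicate number as a block over the compared groups. PMAIP1, which encodes the BH3-only protein NOXA, had 13.6, 11.8 and 13.1 CPM in aggregates, against 3.82, 3.82 and 3.65 CPM in monolayers (log2 1.77, SE 0.13, edgeR adjusted p = 3.17e-14). BBC3, which encodes PUMA, was at 23.5, 18.1 and 17.96 CPM in aggregates, against 6.01, 6.75 and 7.26 CPM in monolayers (log2 1.57, SE 0.12, edgeR adjusted p = 7.12e-14). BMF, another BH3-only gene, fell (log2 −0.79, SE 0.096, edgeR adjusted p = 8.21e-09). Clock genes rose in 10 of 19 tested and fell in 4 (median log2 0.33). NPAS2, an activator of the clock, had 23.9, 23.6 and 21.8 CPM in aggregates, against 4.94, 6.28 and 4.25 CPM in monolayers (log2 2.15, SE 0.12, edgeR adjusted p = 2.62e-17). NR1D1, a repressor, rose too (log2 1.31, SE 0.073, edgeR adjusted p = 3.86e-17). CLOCK itself fell to 70.3, 70.4 and 78.01 CPM in aggregates, against 135, 123 and 123 CPM in monolayers (log2 −0.80, SE 0.062, edgeR adjusted p = 2.01e-13). Each group was harvested at a clock time the labels do not give. In the autophagy and lysosome list 8 of 29 tested rose and 13 fell. The adaptor SQSTM1 rose (log2 0.65, SE 0.054, edgeR adjusted p = 1.41e-12), and CTSA, a lysosomal carboxypeptidase, fell (268, 258 and 269.7 CPM in aggregates against 553, 570.1 and 617 CPM in monolayers; log2 −1.13, SE 0.052, edgeR adjusted p = 2.13e-19).

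Transcripts of the mitochondrial genome were divided by gene, although all of them come from polycistronic precursors of a single small circle. Together they made 71030.0, 72280.0 and 66800.0 CPM in aggregates and 58300.0, 60540.0 and 52560.0 CPM in monolayers. The ribosomal RNA genes rose. RNR2 had 23890.0, 23950.0 and 22370.0 CPM in aggregates, against 9558, 9314 and 7752 CPM in monolayers (log2 1.40, SE 0.064, edgeR adjusted p = 1.5e-19). RNR1 was at 3439, 3304 and 3300.0 CPM in aggregates, against 1460.0, 1511 and 1266 CPM in monolayers (log2 1.24, SE 0.063, edgeR adjusted p = 5.41e-18). ND2, a subunit of complex I, fell to 1729, 1911 and 1789 CPM in aggregates, against 4063, 4351 and 4123 CPM in monolayers (log2 −1.21, SE 0.049, edgeR adjusted p = 6.55e-21), and ND1, CYTB and ATP6 fell less (log2 −0.70, edgeR adjusted p = 1.63e-14; log2 −0.56, edgeR adjusted p = 1.05e-11; log2 −0.48, edgeR adjusted p = 5.5e-08). COX1 did not pass (14150.0, 14450.0 and 13480.0 CPM in aggregates against 13320.0, 13810.0 and 12400.0 CPM in monolayers; log2 0.09, edgeR adjusted p = 0.129), nor did COX2 or COX3. COX3 fell without monolayer replicate 3 (log2 −0.19, edgeR adjusted p = 0.00461) and rose without the 4 MYH7 libraries (0.28, 0.00716), and COX2 fell with library totals as the scale (adjusted p = 0.0177). ND5 and ND6, neighbours on opposite strands, rose (log2 0.57, edgeR adjusted p = 7.14e-10 and log2 1.15, edgeR adjusted p = 5.64e-18). The sources used here do not say whether counting used the strand, so their counts may include reads of the other strand. In all, 5 of 15 rose and 7 fell.

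**Figure D4:**
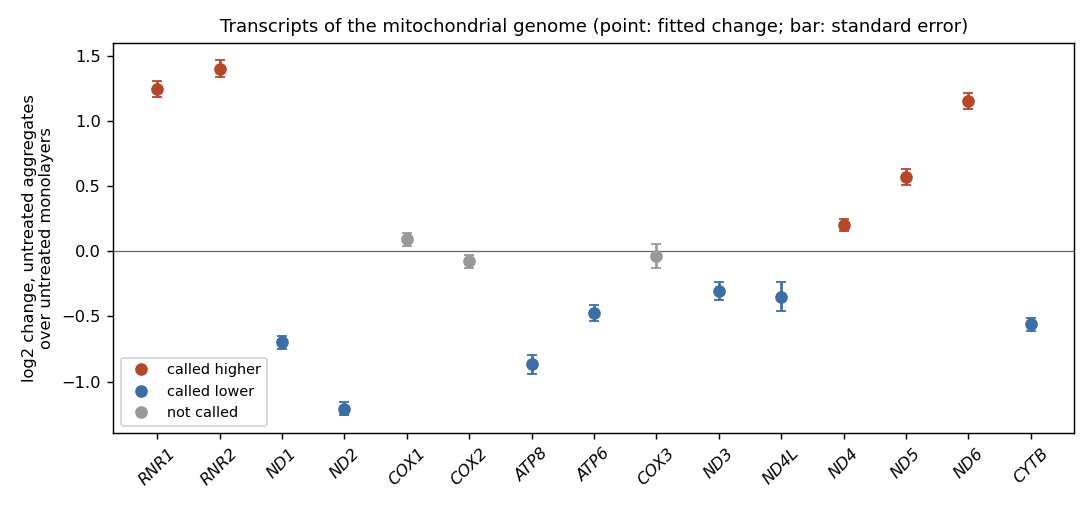
Fitted log2 change, untreated aggregates over untreated monolayers (vertical axis), of the 15 transcripts of the mitochondrial genome in genome order; points are fitted changes, bars their SE and colours the call. The ribosomal RNA genes RNR1 and RNR2 lie at 1.24 and 1.40 and ND2 at −1.21, on opposite sides of 0.

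The aggregate effect was then set beside the effect in cells that had met trastuzumab, primed aggregates over exposed monolayers, which uses none of the same libraries. In that pair 4857 genes were higher (30.4%) and 4567 lower (28.6%). Of the 2924 genes that changed at least 2-fold without trastuzumab, 2377 (81.3%) were called in the same direction there and 18 the other way, and of 2357 such genes in the exposed pair 1997 (84.7%) were called the same way without trastuzumab. The difference between the effects was called for 2411 genes (15.1%), 1317 positive (8.25%) and 1094 negative (6.85%), where positive means a higher aggregate effect without trastuzumab. Without the 4 MYH7 libraries, which leaves 1 untreated library in each form, 798 differences were called. Exposed monolayers were harvested at the end of the exposure and primed aggregates 96 h after it, so drug presence and growth form cannot be told apart in the exposed pair.

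HIF targets showed a larger rise without trastuzumab. For 16 of 30 the difference was called, in all 16 with the positive sign. The median change was log2 1.26 without trastuzumab and 0.79 in the exposed pair. The list summed to 5969 to 6489 CPM in primed aggregates, below the 8415 to 8778 CPM of untreated aggregates. Exposed monolayers, at 2437 to 2540 CPM, lay above untreated monolayers, at 2153 to 2255 CPM. ADM rose by log2 3.06 without trastuzumab and 1.22 in the exposed pair (difference 1.84, SE 0.20, edgeR adjusted p = 1.4e-06), HILPDA by 2.34 and 0.87 (difference 1.47, SE 0.14, edgeR adjusted p = 1.18e-06). Among the genes of oxygen sensing, EGLN3, with 124, 119 and 115 CPM in primed aggregates, against 13.2, 12.8 and 13.99 CPM in exposed monolayers, still rose in the exposed pair (log2 3.16; difference 1.30, SE 0.12, edgeR adjusted p = 9.58e-10). CITED2 had 158, 192 and 156 CPM in primed aggregates, against 164, 155 and 159 CPM in exposed monolayers, so its exposed change was log2 0.08 (difference 1.42, SE 0.094, edgeR adjusted p = 3.93e-12). HIF1A, which changed by log2 −0.71 without trastuzumab, changed by −0.14 in the exposed pair (difference −0.57, SE 0.073, edgeR adjusted p = 1.02e-06). Of 19 glycolysis genes 14 had a called difference, 12 of them positive, and the exceptions were PFKM (difference −0.21) and ENO2 (−1.11).

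Mitotic genes had the larger falls without trastuzumab, with 20 of 34 differences called and all 20 negative. The medians were log2 −1.97 and −1.55. Their sum was 543 to 644 CPM in untreated and 603 to 714 CPM in primed aggregates, ranges that overlapped. In monolayers it was 2680 to 2731 CPM untreated and 2084 to 2233 CPM exposed. HMMR changed by log2 −3.23 without trastuzumab and −2.32 in the exposed pair (difference −0.91, SE 0.17, edgeR adjusted p = 0.000193), and CENPF by −2.26 and −1.48 (difference −0.78, SE 0.15, edgeR adjusted p = 0.00103). In the MAPK list 16 of 25 differences were called, all positive, with medians of log2 0.73 and 0.41. SPRY4 changed in opposite directions, by 0.90 without trastuzumab and −0.63 in the exposed pair, where it had 67.9, 75.9 and 65.6 CPM in primed aggregates, against 105, 108 and 112 CPM in exposed monolayers (difference 1.54, SE 0.094, edgeR adjusted p = 1.82e-13). ETV4 (3.11 and 1.70; difference 1.41, SE 0.13, edgeR adjusted p = 1.14e-09) and DUSP5 (2.29 and 0.83; difference 1.46, SE 0.19, edgeR adjusted p = 2.6e-05) rose in both pairs. ERRFI1 rose by 1.76 and 0.61 (difference 1.15, SE 0.099, edgeR adjusted p = 7.99e-10), whereas EGFR, at 1.86 and 1.67, had no called difference (adjusted p = 0.161). Prostaglandin E synthase PTGES (1.53 and −0.06; difference 1.59, SE 0.10, edgeR adjusted p = 3.93e-12) and RAPGEF3, a cAMP-activated exchange factor (2.26 and 0.72; difference 1.54, SE 0.12, edgeR adjusted p = 1.75e-10), stood among the clearest differences.

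Secretory genes did not show this. In the mammary list 5 of 22 differences were called, 3 positive, and the medians were log2 1.03 and 1.09. SCGB2A2 rose by 4.64 without trastuzumab and 4.24 in the exposed pair (difference 0.41, SE 0.15, edgeR adjusted p = 0.0681). For ribosomal proteins 2 of 32 differences were called, and for replication genes 4 of 35. Sterol genes had 14 of 25 called, 13 of them negative; FDPS changed by log2 −1.34 without trastuzumab and −0.93 in the exposed pair (difference −0.41, SE 0.068, edgeR adjusted p = 5.27e-05).

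**Figure D5:**
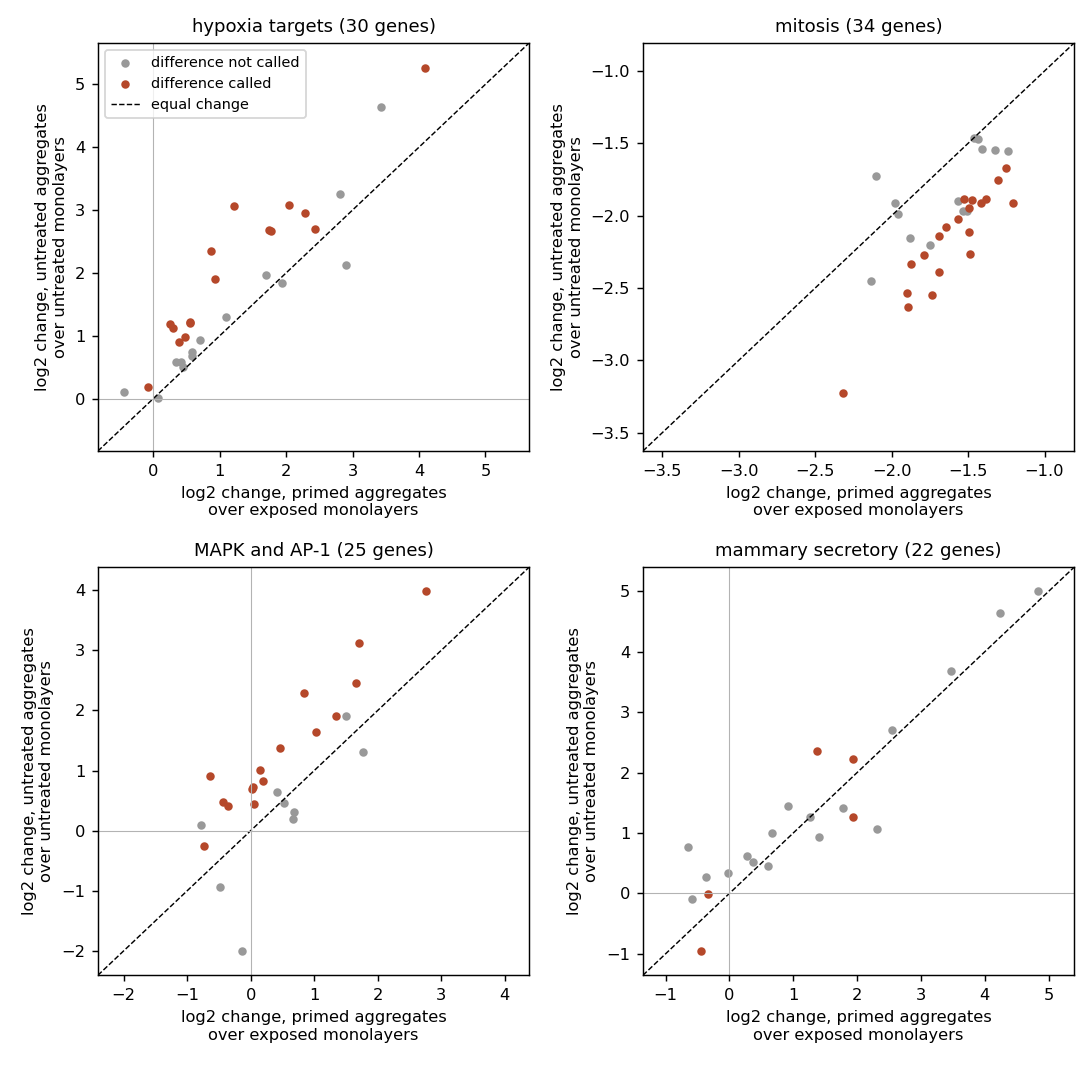
Fitted log2 change of untreated aggregates over untreated monolayers (vertical axes) and of primed aggregates over exposed monolayers (horizontal axes) for 4 gene lists; each point is a gene, red where the difference between the changes was called, and the dashed line marks equal changes. Called hypoxia and MAPK genes lie above the line (16 of 30 and 16 of 25), called mitotic genes below it (20 of 34), and most secretory genes near it (5 of 22 called).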

How the data were processed

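RNA of 21 AU565 libraries in 7 groups of 3 was sequenced, and the values used are the deposited gene counts, made by the authors with featureCounts on hg38 and with limma among the tools, per the submitters' processing notes; versions and the strand setting are not given in the sources used here. The table held 16553 genes, 174 without a symbol, and 15005070 to 26921113 counts per library. Depth limits low genes, and replicates rather than counting error set the intervals.

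Counts were scaled by the trimmed mean of M-values, filtered by expression (584 genes left out, 15969 tested) and fitted in edgeR 4.0.16 (R 4.3.3) by robust quasi-likelihood with all 7 groups and 14 residual degrees of freedom. Changes are contrasts of group means, called at a Benjamini-Hochberg adjusted p under 0.05; the difference between the untreated and the exposed effect was an interaction contrast. DESeq2 1.42.0, limma 3.58.1, other scalings, filters, a replicate block and left-out libraries were alternatives; the 4 left-out libraries with MYH7 were known from earlier results. In simulated counts on 15800 genes for the untreated comparison, the fit recovered 73% of the 100 genes set to a 1.5-fold change and 93% of the 100 set to 2-fold, with 5 false among 171 calls. Those counts were drawn independently at the fitted spread. Only genes above a minimum count were changed, and all others were equal between the compared groups. In the data 64.1% of genes were called and replicate 3 stood apart, so these shares do not carry over to the real calls.

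Deviations of same-numbered aggregate and monolayer libraries correlated by 0.125, 0.257 and 0.323 over 9459 genes. This is the only source of pairing, since the labels do not tie the numbers to a shared culture. Aggregate replicate 2 correlated more with monolayer replicate 1 (0.295), and aggregate replicate 1 with monolayer replicate 2 by 0.0724. Each replicate 3 correlated negatively with replicates 1 and 2 of the other group (−0.39 to −0.141). The values set replicate 3 apart but do not pair replicates 1 and 2 by number.

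Genes are named as the 14 widest rises and falls averaging at least 5 CPM in the higher group with separated libraries, the 5 widest called changes each way per list with at least 1 CPM, the 3 highest members of each list not called, a set of known genes and the clearest differences; other list members were named after their values were seen. The groups, members and lists were chosen with earlier results of these data known. Promoters are from RefSeq. Some genes that the naming rule selects are not reported here.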

Additional observations from a re-analysis of the deposited data

Results flagged for a closer look

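The results listed here are those in which the aggregate effect without trastuzumab differed from the effect in primed aggregates over exposed monolayers by the test of the difference in edgeR, over the named genes of widest change or clearest difference. They came from 2411 called differences among 15969 genes, and each value is the untreated effect minus the exposed effect on the log2 scale.

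The effect was higher without trastuzumab for genes that rose in untreated aggregates. The difference was 1.81 for COL13A1, a membrane collagen, and 1.8 for MT1X, a metallothionein. It was 1.59 for PTGES, which makes prostaglandin E2, and 1.09 for PTGS1, an enzyme upstream of it. The cAMP exchange factor RAPGEF3 and the signalling inhibitor SPRY4 both had 1.54. CITED2 had 1.42, GPRC5C 1.35, EGLN3 1.30, FOS 1.22, PPFIA4 1.17, ERRFI1 1.15 and BHLHE40 1.03. The epithelial factor ELF3 had 0.87. DHRS3, a retinaldehyde reductase, changed by 0.43 without trastuzumab and by −0.54 in the exposed pair, a difference of 0.96.

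Genes that fell gave both signs. LRTM2 and CYP4F8 fell in untreated aggregates and fell further in the exposed pair, so their differences were positive, 1.29 and 1.49. Mitotic genes fell further without trastuzumab, with −0.93 for KIF14, −0.91 for HMMR and −0.69 for KNL1.

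ADAM23 (−5.07, SE 0.94, edgeR adjusted p = 0.00177), HTR2B (−4.33, SE 0.75, edgeR adjusted p = 0.000733) and CITED1 (−3.82, SE 0.61, edgeR adjusted p = 0.000371) had the widest negative differences of the genes given here. Melanocyte genes summed to 24.6 to 34.0 CPM in untreated aggregates and 60.4 to 130.1 CPM in untreated monolayers, against 63.8 to 103.9 CPM in primed aggregates and 46.5 to 108 CPM in exposed monolayers. The part of those transcripts in the 3 differences was not tested.

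Some of these differences lost their call when a library was left out or the fit was changed. That of COL13A1 was lost without monolayer replicate 2 (edgeR adjusted p = 0.0568) or 3 (0.132), aggregate replicate 1 (0.0623) or exposed monolayer replicate 2 (0.0692) or 3 (0.104). It was also lost in a fit of the compared groups alone (0.0721) and with the replicate number as a block there (0.0964). The difference of ADAM23 was lost with the replicate number as a block over the compared groups (0.0619) and that of PPFIA4 with limma voom (0.0546). Without the 4 libraries with MYH7, the differences of CYP4F8, KNL1, LRTM2, PPFIA4 and PTGS1 were not called, at adjusted p of 0.108 to 0.268.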

How the results depend on the processing

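Across DESeq2, limma voom, other scalings, no filter, a fit of the compared groups alone and the replicate block, 4727 to 5445 genes were higher and 4558 to 5495 lower in aggregates, against 5256 and 4973. Scaling by library totals gave 4727 higher and 5495 lower genes, and upper quartiles 5445 and 4759; the median of all genes then lay at log2 −0.04 and 0.03. With only genes averaging at least 10 CPM tested, 574 rose and 442 fell at least 2-fold, since fewer genes were tested. With the replicate block, 5234 genes were higher and 4932 lower in the fit of all groups, and 4811 and 4558 in the fit of the compared groups. Against the fit of all groups, the block over the compared groups added calls for MYH7, PIGR and RPS9, PIGR being called there without the block too, and lost the differences of ADAM23 and COL13A1. It changed no other call of a gene given here. Leaving out 1 library gave 4893 to 5094 higher, 4662 to 4876 lower, 1540.0 to 1729 at least 2-fold higher and 1242 to 1380.0 at least 2-fold lower genes, and 1750.0 to 2672 called differences. Without the 4 libraries with MYH7, where the lone aggregate and monolayer libraries are assumed to vary like the other groups, 3669 genes were higher, 3367 lower and 798 differences were called, against 2411; COX3 then had log2 0.28 (edgeR adjusted p = 0.00716), against −0.04, and ACTB, B2M, MT1F, NCL, PNPLA2, RPL22, SREBF1 and TXNIP, not called with all libraries, were called. Of 521 named genes 393 were called, 326 kept their call in all 17 alternatives, 368 in all but that with the MYH7 libraries left out, and none of the called genes changed sign in any of them.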
